A study of Mus musculus with 11 samples.

Results

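Levels of 8 patterning transcription factors were compared across every array of the series. They are the Iroquois homeobox genes Irx1, Irx2, Irx3, Irx4 and Irx5, the T-box genes Tbx2 and Tbx3, and the paired-related homeobox gene Prrx1. No Pitx gene is among them. Members were taken by gene name in the scanner output, with older synonyms and accessions allowed, and every probe was kept, which gave 17 probes of 41121 for 8 genes of 27567. The 8 genes had been picked with their levels on these arrays known, so their own values are given as a description. Where a call of the fit is printed for them, it is not read as a test.

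RNA from mouse cardiac progenitor cells, which the series calls mesoangioblasts (vessel-associated progenitors), and from the myoblast line C2C12 was hybridised to 11 Agilent arrays of 1 colour (Cy3). The labels give 5 arrays of progenitors from beta-sarcoglycan null mice (KO), 3 from wild-type mice (WT), and 3 of C2C12, which forms skeletal muscle fibres in culture and served as the control for muscle differentiation. All progenitors came from biopsies of ventricle, aorta or atrium. Wild-type progenitors are described as forming beating cardiomyocytes and null progenitors as forming skeletal muscle fibres. Age, strain, passage, pooling of animals and the part of Sgcb deleted were not given in the sources used here.

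In 3 pairs of arrays repeated spots on 1 array varied more than the arrays differed from each other in log2 signal (ratio 0.577 to 0.692 against 2.53 or more in the other pairs). Each pair was counted as 1 sample: KO ventricle, KO aorta and C2C12, each hybridised on slides 1 and 3. This left KO ventricle, KO aorta and KO atrium, the same 3 regions of WT, and 2 samples of C2C12. The spread within KO or WT is therefore a spread between heart regions, and nothing says that the samples came from separate animals, so p-values measure only the spread between these samples. No slide held both KO and WT. C2C12 was on every slide, and an alternative fit took the slide as a block. That fit separated slide 2 alone from slides 1 and 3, through the single difference between the 2 C2C12 samples. Those samples were themselves unlike (ratio 2.765 and 2.879 between their arrays), so slide and C2C12 sample cannot be told apart. Calls kept or lost in that fit therefore do not settle the part of the slide. Sgcb itself, which encodes beta-sarcoglycan, read 2.66 ± 0.32 in KO and 2.03 ± 0.19 in WT (SD, n = 3 each; log2 over the array's 75th percentile, difference 0.63, SE 0.21, limma adjusted p = 0.0709). It was not lower in the samples labelled KO, so they are called KO-labelled and WT-labelled, and every direction rests on those labels.

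The marker lists bear on what the cells were. All 6 skeletal myoblast markers were higher in KO-labelled samples, where their summed signal was 46.4 to 148.8 times the array's 75th percentile, against 0.0999 to 0.146 in WT-labelled samples and 70.5 to 151.8 in C2C12. In WT-labelled samples Myf5, Myog and Cdh15 were not well above background anywhere. In KO with WT these genes passed the filter on dim probes (given below) through KO arrays alone, so their calls are not independent of it. Of 7 fibroblast and stroma markers, 5 were tested: Pdgfra, Dcn and Thy1 were lower in KO-labelled samples and Col1a1 and Col1a2 higher, with summed signals of 187.7 to 212.9 and 134.5 to 217.0. None of the 5 endothelial markers was well above background in either genotype. Of 8 cardiomyocyte markers 5 were tested: Tnnt2 and Tnni3, which are troponin genes, were higher in KO-labelled samples by 3.07 and 1.30 (adjusted p = 0.00536 and 0.0332) and Nppa was lower. The summed signal of that list was 19.2 to 43.2 in KO-labelled samples, 2.49 to 6.48 in WT-labelled samples and 27.0 to 57.6 in C2C12, and Ryr2 was not detected on any array. Of the 7 pericyte and mesoangioblast markers, Rgs5, Alpl, Abcc9 and Kcnj8 were not above background on any KO or WT array, while Pdgfrb and Cspg4 were above it on all of them. Anpep was higher in KO-labelled samples by 6.69 (adjusted p = 5.77e-05) and Pdgfrb by 1.30 (adjusted p = 0.0122), and Cspg4 differed by 0.46 (adjusted p = 0.15). Of 3 epicardial and 3 blood markers tested, Bnc1 and Lyz2 were lower in KO-labelled samples (adjusted p = 0.00106 and 9.72e-05). The part of any such difference in cell makeup in the values below was not tested, and in these bulk samples fewer cells of a type and less RNA per cell cannot be told apart.

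Iroquois proteins are homeodomain transcription factors that divide tissues into territories during development. Their genes lie in a pair of clusters, with Irx1, Irx2 and Irx4 together on mouse chromosome 13 and Irx3, Irx5 and Irx6 on chromosome 8. In the heart Irx4 is known as a ventricular factor, Irx3 as a factor of the fast ventricular conduction system, and Irx5 as a regulator of the repolarisation gradient across the ventricular wall. Tbx2 and Tbx3 are T-box repressors that keep the atrioventricular canal and the conduction system from taking on the working chamber programme. Prrx1 is a homeodomain factor of limb, craniofacial and vessel-associated mesenchyme.

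RefSeq promoter sequences (build GRCm38.p6) were matched for 4 of the 8 genes, Irx2, Irx3, Irx4 and Prrx1. All 4 that were matched are shown, whatever their pattern. Across the groups these 4 genes gave 3 different patterns: Irx2 and Prrx1 were lower in KO-labelled than in WT-labelled samples, Irx3 was higher, and Irx4 did not separate them. Each window is the 250 bases before the annotated start, read 5′ to 3′ on the gene's strand, and lies at chr13:72628570-72628819 (plus strand) for Irx2, chr8:91801655-91801904 (minus strand) for Irx3, chr13:73260247-73260496 (plus strand) for Irx4 and chr1:163313651-163313900 (minus strand) for Prrx1. Capitals mark matches to 5 motifs searched on both strands: the E-box CANNTG, the palindrome ACANNTGT reported for Iroquois proteins (which contains an E-box), the T-box half-site GGTGTG, the homeobox site TAATTA and the TATA box TATAAA.
Irx2: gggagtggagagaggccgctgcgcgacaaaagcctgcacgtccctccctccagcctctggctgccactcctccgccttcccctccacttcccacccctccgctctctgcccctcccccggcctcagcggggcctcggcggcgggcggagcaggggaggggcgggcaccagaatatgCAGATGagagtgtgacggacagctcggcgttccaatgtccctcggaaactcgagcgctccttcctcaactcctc
Irx3: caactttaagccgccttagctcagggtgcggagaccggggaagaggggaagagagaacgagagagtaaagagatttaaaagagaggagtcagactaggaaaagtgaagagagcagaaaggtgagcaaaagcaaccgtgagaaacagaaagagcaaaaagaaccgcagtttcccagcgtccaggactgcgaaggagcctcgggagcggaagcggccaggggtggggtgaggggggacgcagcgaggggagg
Irx4: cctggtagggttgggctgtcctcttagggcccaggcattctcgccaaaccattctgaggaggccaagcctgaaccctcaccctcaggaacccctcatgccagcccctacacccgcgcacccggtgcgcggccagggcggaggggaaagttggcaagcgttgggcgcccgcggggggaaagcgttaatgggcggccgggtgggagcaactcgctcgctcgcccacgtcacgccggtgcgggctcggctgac
Prrx1: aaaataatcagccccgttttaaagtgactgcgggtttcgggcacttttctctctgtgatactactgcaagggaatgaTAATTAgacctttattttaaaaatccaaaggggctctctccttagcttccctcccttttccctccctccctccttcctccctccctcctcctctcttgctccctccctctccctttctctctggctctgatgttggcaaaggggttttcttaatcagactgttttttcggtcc

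The Irx2 window held 1 E-box, beginning 74 bases before the start, and the Prrx1 window held 1 TAATTA, beginning 173 bases before it. The Irx3 and Irx4 windows held none of the 5 motifs. Of 32851 mouse promoters of the same length, 66.2% held CANNTG, 6.31% ACANNTGT, 16.3% GGTGTG, 4.84% TAATTA and 12.4% TATAAA. The G and C content was 68.4% for Irx2, 56.0% for Irx3, 68.8% for Irx4 and 47.6% for Prrx1, against a median of 52.4%. The Irx2, Irx3 and Irx4 windows had 19, 13 and 22 CG pairs and the Prrx1 window 4, against a median of 6. A match is a description of the letters and shows no binding.

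Levels are log2 of the processed signal minus the array's 75th percentile, so 0 is that percentile, and levels of different genes were not set against each other because they come from different probes. A group in which no array read the probe well above background has only an upper limit. The difference is then a lower bound, written "at least N-fold": the mean of the bright group over the mean floor of the dim one. On each array the floor is the dimmest detected probe of that array, or the probe itself where it was brighter. All 8 genes passed the filter on dim probes (well above background on at least 3 arrays). In KO-labelled with WT-labelled samples 4 of the 8 were called, 1 higher (Irx3) and 3 lower (Irx1, Irx2 and Prrx1). Irx1 passed the filter through the 3 WT arrays alone and Irx3, in this comparison, through the 5 KO arrays alone. Their calls are therefore not independent of the filter. The same holds for every listed gene given below as at least N-fold. Of all 15002 genes tested, 29.8% were called, 13.8% higher and 16.0% lower. Samples of the KO and WT labels did not overlap for 6 of the 8, beside 49.3% of all genes. The members' median difference was -0.77, that of all genes -0.05. Since the values chose the members, nothing is read from these counts. With the slide as a block 897 genes were called in place of 4464, with Irx1, Irx2 and Irx3 among them and Prrx1 not. Nothing is read from that either.

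**Figure D1:**
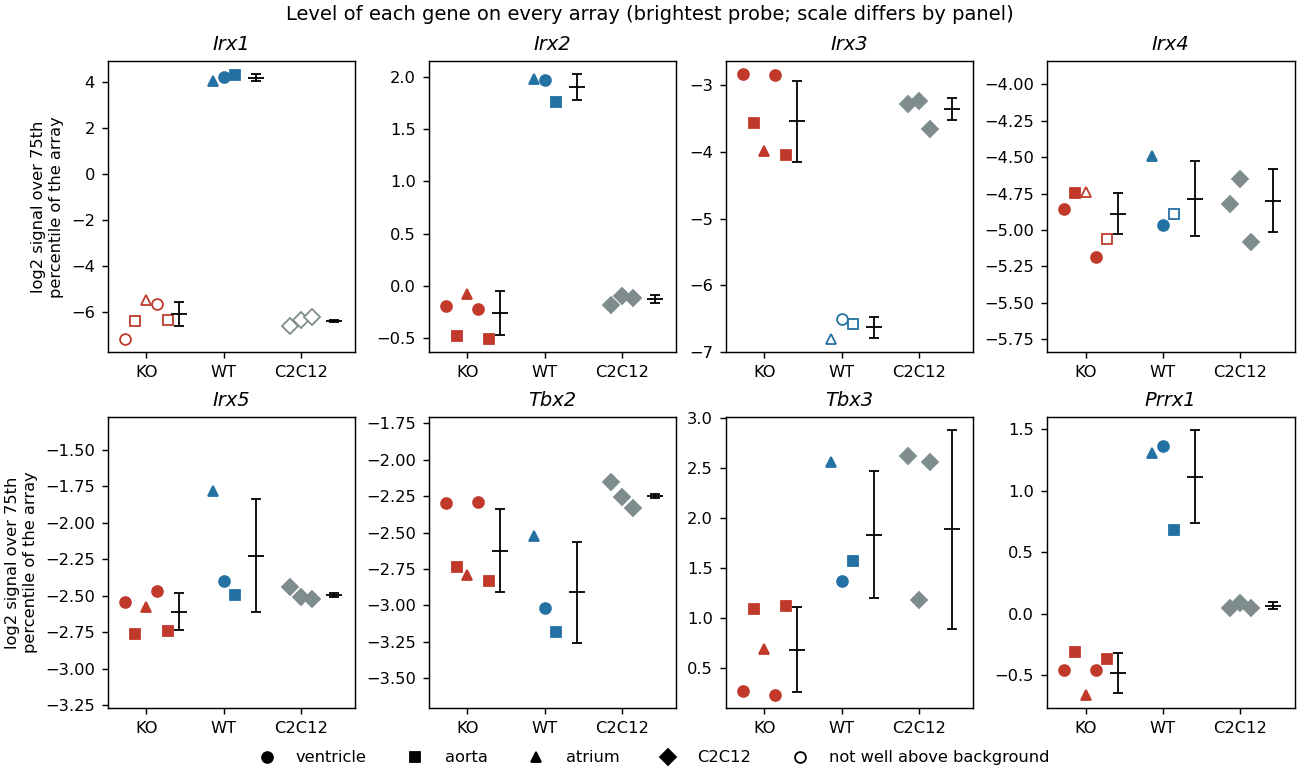
Level of each of the 8 genes on every one of the 11 arrays, as log2 signal over the array's 75th percentile (vertical axis, a different scale in each panel), grouped as KO, WT and C2C12. Each gene is shown by its probe with the highest mean, circles, squares and triangles mark ventricle, aorta and atrium, diamonds C2C12, open symbols are not well above background, and black bars are the mean and SD over joined samples. Irx1 stands at 4.05 to 4.34 on the 3 WT arrays and is open on every other array, and Irx3 is open on the 3 WT arrays alone.

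Within the chromosome 13 cluster, Irx1 and Irx2 were both highest in the WT-labelled samples, whereas Irx4 was near background everywhere. Irx1 was read by a probe at mm8 chromosome 13, 72424278 to 72424337. The processed signal was 18301 in WT atrium, 19077 in WT ventricle and 23142 in WT aorta. On the 5 KO arrays it was 7.51 to 24.02 and on the 3 C2C12 arrays 10.8 to 13.4, none of them well above background. Irx1 was thus detected in the WT-labelled progenitors from each of the 3 regions and on no array of the other groups.

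On the log2 scale Irx1 read 4.05, 4.22 and 4.34 in WT atrium, ventricle and aorta (mean 4.20 ± 0.15, SD, n = 3). Its level in WT-labelled samples was at least 567-fold that in KO-labelled samples and at least 851-fold that in C2C12. A second Irx1 probe (72425832 to 72425891) read -1.77, -1.09 and -0.96 in the WT-labelled atrium, ventricle and aorta and was again undetected on every KO and C2C12 array. By that probe the level was at least 12.9-fold that in KO-labelled samples and at least 19.2-fold that in C2C12. Both probes put Irx1 in the same samples, with bounds that differ because the second probe was dimmer.

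Irx2, the neighbour of Irx1, was above background on all 11 arrays with each of its 3 probes. The probe at 73099837 to 73099896 read 1.98 in WT atrium, 1.97 in WT ventricle and 1.76 in WT aorta. KO ventricle, aorta and atrium read -0.21, -0.50 and -0.08, and the values were -0.15 and -0.10 in C2C12. The WT-labelled samples stood apart from all others, and KO-labelled samples overlapped with C2C12. The KO-labelled mean (-0.26 ± 0.21, SD, n = 3) was 2.16 below the WT-labelled mean (1.90 ± 0.12, SD, n = 3), with an SE of 0.16, a 4.48-fold difference in signal. The probes at 73099018 to 73099679 and 73097724 to 73097783 differed by -2.15 (SE 0.23) and -2.07 (SE 0.23). Across all 3 probes of Irx2 the size of the difference thus varied by less than its SE. WT-labelled samples exceeded C2C12 by 2.03 (SE 0.17), and KO-labelled samples differed from C2C12 by -0.14 (95% interval -0.53 to 0.26).

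Irx4, the ventricular member of the cluster, read -5.02, -4.90 and -4.74 in KO ventricle, aorta and atrium (probe at 73735266 to 73735325). The WT-labelled samples read -4.97, -4.89 and -4.49 in the same order, and C2C12 -4.95 and -4.65. The samples of all 3 groups overlapped, and the probe was well above background on 3 of 5 KO arrays, 2 of 3 WT arrays and 3 of 3 C2C12 arrays. KO-labelled and WT-labelled means differed by -0.10 (SE 0.18, 95% interval -0.54 to 0.33). Both ventricle samples lay at the low end of this narrow range of 0.53. Repeat arrays of 1 sample differed by 0.26 to 0.33 for Irx4, so the order of its levels has no resolution. The sign of its KO with WT difference turned with normexp background correction (0.30), with median scaling (0.002), with the slide as a block (0.20) and without WT atrium (0.04).

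In the chromosome 8 cluster, Irx3 showed the opposite arrangement to Irx1. In the KO-labelled samples its probe (mm8 chromosome 8, 94687988 to 94688047) read -2.84 (ventricle), -3.80 (aorta) and -3.98 (atrium), and was well above background on all 5 KO arrays. C2C12 read -3.47 and -3.23, above background on 3 of 3 arrays, and the WT-labelled samples read -6.50 (ventricle), -6.58 (aorta) and -6.81 (atrium), above background on none. Irx3 was therefore detected in KO-labelled samples and C2C12, which overlapped, and not in WT-labelled samples.

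The bounds for Irx3 were small because its signal was dim: KO-labelled samples stood at least 2.57-fold above WT-labelled samples and C2C12 at least 2.94-fold. The signals behind them were 60.9 to 151.1 on KO arrays, 76.7 to 114.7 on C2C12 arrays and 9.86 to 11.95 on WT arrays. Among KO-labelled samples the ventricle was 0.96 above the aorta and 1.14 above the atrium. Repeat arrays of the KO aorta differed by 0.49, and those of the KO ventricle by 0.02, so the place of the aorta is less sure than that of the ventricle. KO-labelled samples and C2C12 differed by -0.19 (SE 0.33, 95% interval -0.98 to 0.59).

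Irx5, the partner of Irx3 in this cluster, was above background on all 11 arrays (95250152 to 95250211). It read -2.51, -2.75 and -2.58 in KO ventricle, aorta and atrium, -2.40, -2.50 and -1.78 in WT ventricle, aorta and atrium, and -2.48 and -2.51 in C2C12. Apart from WT atrium, every sample lay between -2.75 and -2.40. KO-labelled samples lay below WT-labelled ones by 0.38 (SE 0.22, 95% interval of the difference -0.93 to 0.16), with the KO ventricle only just under the WT aorta. Without WT atrium the difference was -0.16, and with normexp background correction it was 0.02. Irx3 and Irx5 thus differed in how they separated the genotype labels, as did Irx2 and Irx4 in the other cluster.

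**Figure D2:**
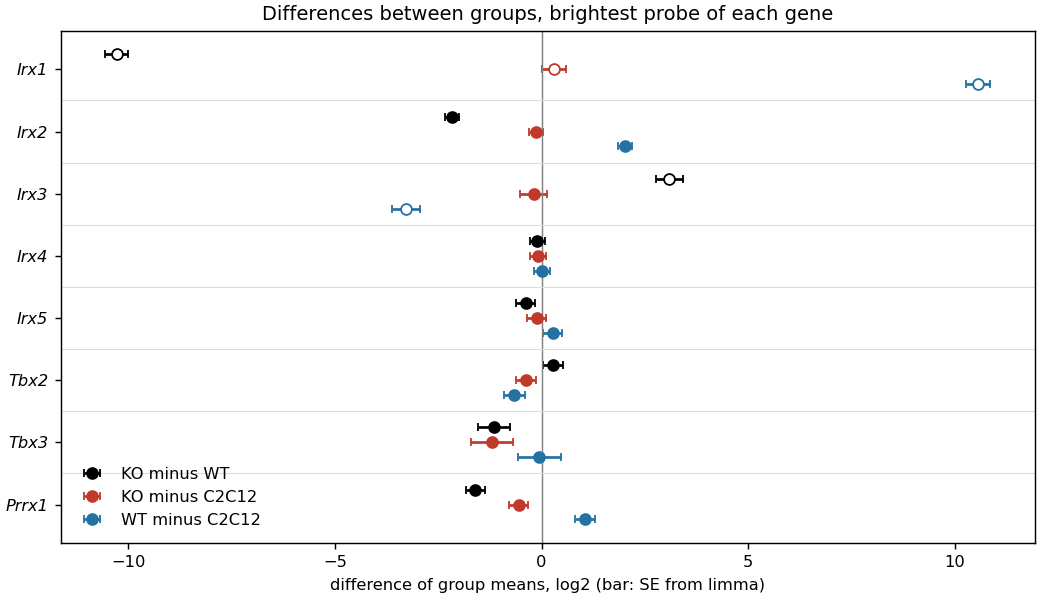
Difference of group means for each of the 8 genes (probe with the highest mean), in log2 units with the SE from limma as bars, for KO minus WT (black), KO minus C2C12 (red) and WT minus C2C12 (blue). Open symbols mark differences in which at least 1 group was not above background on any array, so their size is not exact. Irx1, Irx2 and Prrx1 lie left of 0 for KO minus WT and right of 0 for WT minus C2C12, and Irx3 lies the other way.

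The T-box repressor Tbx3, which patterns the sinus node and the atrioventricular conduction tissue, had KO-labelled levels of 0.26 (ventricle), 1.11 (aorta) and 0.69 (atrium) (mm8 chromosome 5, 119945081 to 119945140). It read 1.37 in WT ventricle, 1.57 in WT aorta and 2.56 in WT atrium, and 2.59 and 1.18 in the C2C12 samples. All 3 KO-labelled samples lay below all WT-labelled and C2C12 samples, and the highest WT-labelled sample was the atrium.

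The Tbx3 difference between KO-labelled (0.69 ± 0.43, SD, n = 3) and WT-labelled samples (1.83 ± 0.63, SD, n = 3) was -1.15 (SE 0.38). It was -0.79 without WT atrium and -2.55 with the slide as a block, a fit that takes the difference between the C2C12 samples for a slide effect. The C2C12 samples differed from each other by 1.40, more than the difference between the genotype labels, whereas repeat arrays of the first C2C12 sample differed by 0.06. Only 4.09% of 15805 genes were at least 1 higher in the first C2C12 sample, which joins slides 1 and 3, than in the second, on slide 2 with the WT arrays. WT-labelled samples and C2C12 differed by -0.05 (SE 0.52), a value that ran from -0.75 to 0.65 on leaving out samples in turn. KO-labelled samples and C2C12 differed by -1.20 (SE 0.52), or -0.50 without the first C2C12 sample and -1.90 without the second. A second Tbx3 probe, designed on a cDNA clone (119933349 to 119933408), was above background on only 1 array, of C2C12, and gave no usable difference.

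Tbx2, which limits chamber growth in the atrioventricular canal, had KO-labelled levels of -2.29 (ventricle), -2.78 (aorta) and -2.79 (atrium) (mm8 chromosome 11, 85657187 to 85657246). The WT-labelled samples were at -3.02, -3.19 and -2.52 in the same order, and C2C12 at -2.24 and -2.26. Both C2C12 samples were above every heart sample, and KO-labelled and WT-labelled samples overlapped. The gap between C2C12 and KO ventricle was smaller than the 0.17 between repeat arrays of the first C2C12 sample. On slide 3 that sample read -2.33, below both KO ventricle arrays (-2.30 and -2.29). The order of C2C12 and KO ventricle therefore has no resolution. The KO with WT difference was 0.29 (SE 0.24, 95% interval -0.30 to 0.87), or 0.48 without WT atrium and 0.12 without KO ventricle. WT-labelled samples lay below C2C12 by 0.66 (SE 0.25) and KO-labelled samples by 0.37 (SE 0.25). The WT with C2C12 difference was -0.85 without WT atrium and -0.66 with every array its own sample, which counts repeat arrays separately. Both passed the threshold, but since the values chose the members nothing is read from that.

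Prrx1 was lowest in KO-labelled samples, intermediate in C2C12 and highest in WT-labelled samples. The probe with the highest mean (mm8 chromosome 1, 165094518 to 165094577) read -0.45, -0.34 and -0.66 in KO ventricle, aorta and atrium. It read 1.36, 0.68 and 1.30 in WT ventricle, aorta and atrium, and 0.05 and 0.09 in C2C12. The 3 groups did not overlap, and the WT aorta was the WT-labelled sample nearest to C2C12. KO-labelled samples (-0.48 ± 0.16, SD, n = 3) were 1.60 (SE 0.22) below WT-labelled samples (1.12 ± 0.38, SD, n = 3), a 3.03-fold difference, and 0.55 (SE 0.23) below C2C12. WT-labelled samples were 1.05 (SE 0.23) above C2C12. With the slide as a block the KO with WT difference was -1.56.

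Prrx1 had 6 probes, of which 4 were above background on all 11 arrays. Besides the first, 2 more of transcript variant 1 (165098526 to 165098585 and 165084928 to 165084987) differed between KO-labelled and WT-labelled samples by -1.69 (SE 0.26) and -1.58 (SE 0.25). The probe of transcript variant 2 (165083721 to 165083780), which encodes an isoform with another carboxy terminus, differed by -1.34 (SE 0.26). All 4 probes were therefore lower in KO-labelled samples. They are assigned to a variant by the accession they were designed on, and whether those of variant 1 also read variant 2 was not tested. Against C2C12 the WT-labelled excess was 0.61 (SE 0.27) for variant 2 and 0.93 to 1.10 for the probes of variant 1. The other 2 probes, designed on cDNA clones (165089749 to 165089808 and 165119783 to 165119842), were above background on 1 C2C12 array and on no array.

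**Figure D3:**
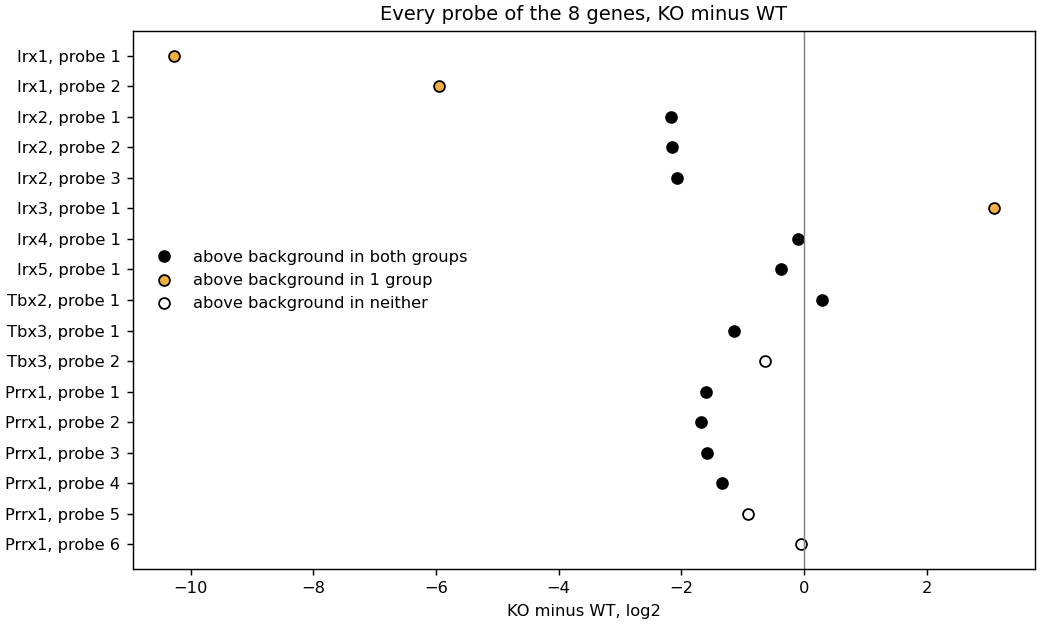
KO minus WT difference in log2 units (horizontal axis) for each of the 17 probes of the 8 genes, numbered within a gene from the highest mean down. Filled points were above background in both groups, orange points on the arrays of 1 group only, and open points in neither. The 3 Irx2 probes lie between -2.16 and -2.07, and the 4 filled Prrx1 probes between -1.69 and -1.34.

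Each genotype label was also set against C2C12. KO-labelled samples with C2C12 gave 0 of 8 genes called (limma adjusted p under 0.05; 1 at an unadjusted p under 0.05, and 1, Tbx3, with every array its own sample), beside 1.26% of all 15805 genes, and 3 of 8 (Tbx2, Tbx3 and Prrx1, all lower) did not overlap, beside 37.9% of all genes in either direction and 20.6% in this one. For Tbx2 the gap was smaller than the difference between repeat arrays of the first C2C12 sample. The median difference of the 8 genes was -0.16, that of all genes -0.03. WT-labelled samples with C2C12 gave 4 of 8 called, Irx1, Irx2 and Prrx1 higher and Irx3 lower, beside 27.0% of all genes (13.7% higher and 13.3% lower), and 5 of 8 without overlap, beside 54.1%. Without either C2C12 sample the Prrx1 call was lost, at 1.03 and 1.07. The members' median was 0.14, that of all genes 0.03. Both comparisons use the same C2C12 samples, and the shares called cannot be compared between them as strengths of effect. Here too nothing is read from the members' counts, since their values chose them.

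Heart regions were compared as single samples, with no test. WT atrium stood above the mean of WT ventricle and aorta by 1.08 for Tbx3, 0.67 for Irx5, 0.58 for Tbx2, 0.44 for Irx4, 0.28 for Prrx1 and 0.11 for Irx2. It stood below that mean by 0.23 for Irx1, and Irx3 was not detected in WT. Tbx3 was the single member past 1 log2 unit, beside 6.66% of 15805 genes that were at least 1 higher in WT atrium. KO atrium differed from the mean of KO ventricle and aorta by 0.27 for Irx2, 0.22 for Irx4, 0.05 for Irx5, 0.01 for Tbx3, -0.26 for Tbx2, -0.26 for Prrx1 and -0.66 for Irx3, and Irx1 was not detected in KO. KO ventricle differed from KO aorta by -0.85 for Tbx3, 0.96 for Irx3 and 0.49 for Tbx2, with no member past 1 unit, beside 8.43% of all genes. Each region held the same position on every slide, so region and array position cannot be told apart.

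Genes with patterns like the members' were sought among 15804 others, by the root mean square (RMS) difference of log2 levels over the 8 samples after each gene was centred on its own mean. For Irx1 the nearest were Klra15, Klra7 and Klra1 (RMS 0.23 to 0.26), members of a family of near-identical receptor genes whose probes may share targets, and only 5 genes lay within 0.5. Irx1 itself had an RMS of 5.04 about its mean. In KO-labelled samples and C2C12 it was undetected, so there the distance compares values near background. Its repeat arrays of KO ventricle differed by 1.54, so the order of its nearest genes has little resolution. For Irx2 the nearest were Taf7 (0.11), Zfp871 (0.12) and AV166465 (0.16), with 442 genes within 0.5. For Prrx1 they were the transcripts EG666453 (0.14) and 9630013D21Rik (0.15) and Reck (0.17), with 1488 within 0.5.

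Irx3 was followed most closely by Dipk2a (0.26), Ica1l (0.29) and Chil3 (0.31), with 65 genes within 0.5. Its WT-labelled values in that distance were likewise near background. Tbx3, with its high WT atrium and its split C2C12 samples, had Loxl3 (0.28), Cubn and Cx3cl1 (0.36 each) nearest and 73 within 0.5. The flat genes had many others within 0.5: 9880 for Irx4, 9231 for Irx5 and 7654 for Tbx2. Their nearest genes were Glp2r, Nsfl1c and Caprin1 for Irx4, Itch, TC1629326 and Tbc1d19 for Irx5, and Birc2, Gtdc1 and Edem3 for Tbx2. For those 3 genes nearness means only that a level hardly varied.

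Relatives of the members were read in the fit over all genes, where adjusted p refers to limma over 15002 genes. Over all 15002 genes 29.8% were called, 13.8% higher and 16.0% lower in KO-labelled samples. Each KO with WT list count below stands beside those shares, and no list was tested as a set. Of 16 other Iroquois and T-box genes 5 were tested, of which 1 was higher and 1 lower in KO-labelled samples, with a median of -0.42. Tbx1, a T-box activator of pharyngeal and second heart field progenitors, was at least 106.8-fold higher (adjusted p = 2.81e-05, 1.66 to 1.98 in KO-labelled samples and not above background in any WT array). Mga, a T-box protein that also binds Max, was lower by 1.49 (SE 0.14, adjusted p = 0.000742), at -2.43 to -2.26 against -0.96 to -0.73. Tbx18, of the epicardium and sinus horn, differed by -0.04 (adjusted p = 0.954). Tbx5 and Tbx20, which are cardiac chamber factors, were not above background on any of the 11 arrays. Irx6, the third gene of the Irx3 cluster, was above background on 1 WT and 2 C2C12 arrays and on no KO array, and Tbx4 on 1 WT array.

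Of 20 paired and limb-bud homeobox genes 12 were tested, with 4 higher, 3 lower and a median of 0.11. Prrx2, the paralogue of Prrx1, differed by -0.39 (SE 0.36, adjusted p = 0.465), and whether it differed less than Prrx1 was not tested. Lhx2 was at least 36.8-fold higher in KO-labelled samples (adjusted p = 0.00011).

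Pitx3 was higher by 1.91 (SE 0.30, adjusted p = 0.00542) and Shox2, a sinus node homeobox gene, by 1.43 (SE 0.33, adjusted p = 0.0227). Both calls ended with the slide as a block (0.138 and 0.309), and that of Shox2 also without any 1 KO-labelled sample or WT ventricle (0.0507 to 0.075). In the other direction, Emx2 was at least 27.2-fold lower (adjusted p = 9.26e-05). Dlx1 and Dlx2, which lie side by side and pattern branchial arch and forebrain, were lower by 3.02 (SE 0.22, adjusted p = 0.00028) and 2.93 (SE 0.34, adjusted p = 0.00178). Pitx1 was not detected on any of the 11 arrays. The homeobox genes thus moved in both directions between the genotype labels.

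Of 15 mesenchyme regulators 13 were tested, of which 5 were lower and 1 higher in KO-labelled samples, with a median of -0.97. Twist1, a regulator of limb and cranial mesenchyme, read 1.77 to 1.80 in WT-labelled samples and -0.69 to -0.34 in KO-labelled ones (difference -2.35, SE 0.15, adjusted p = 0.000173). Osr1 was lower by 3.41 (SE 0.33, adjusted p = 0.000937) and Sox9, the cartilage regulator, by 2.01 (SE 0.23, adjusted p = 0.00164). Osr2 was at least 5.002-fold lower (adjusted p = 0.000541, or 0.114 with normexp background correction). Foxc1 was higher by 1.16 (SE 0.20, adjusted p = 0.00758, or 0.073 with the slide as a block). Of the 5 stromal markers tested, Pdgfra, Dcn and Thy1 were also lower in KO-labelled samples, whereas Col1a1 and Col1a2 were higher by 0.77 and 0.91. The part of cell makeup in the mesenchyme genes was not tested.

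Chamber, conduction and growth genes that the literature ties to Irx or Tbx2 and Tbx3 formed a list of 27, of which 18 were tested, 8 lower and 1 higher in KO-labelled samples (median -0.80). Cdkn2b, a cell cycle inhibitor, was at least 169.7-fold lower (adjusted p = 1.06e-05). Mycn, a growth regulator that Tbx2 is reported to repress, was at least 10.6-fold lower (adjusted p = 0.000715). The atrial natriuretic peptide gene Nppa read -3.47 to -3.14 in WT-labelled samples and -5.72 to -5.33 in KO-labelled ones, where 1 of 5 arrays was above background (adjusted p = 0.000365, or 0.428 with normexp).

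Among the ion channels of that list, Cacna1g, a T-type calcium channel, was at least 12.6-fold lower (adjusted p = 0.0189), a call lost without KO ventricle, KO aorta, WT ventricle or WT aorta (0.056 to 0.0676), with normexp (0.0953), with the slide as a block (0.341) and with region as a block (0.0568). Hcn4, the main sinus node pacemaker channel, was lower by 0.80 (SE 0.19, adjusted p = 0.024). That call was lost in 11 alternatives, and the sign turned with normexp (0.05) and with the slide as a block (0.36). Gja1, which encodes connexin 43, differed by 0.51 (SE 0.29, adjusted p = 0.24, or 0.0367 without WT atrium).

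Of 29 genes of the signals that place Irx and Tbx genes in the embryo, 20 were tested, with 6 higher and 6 lower in KO-labelled samples (median -0.15). Bmp4, a ligand that induces Tbx2 and Tbx3 in the embryo, was higher by 3.95 (SE 0.41, adjusted p = 0.00114), at -1.42 to -0.76 against -5.77 to -4.29. Heyl and Hey1, transcriptional effectors of Notch, were higher, Heyl at least 87.0-fold (adjusted p = 0.000782) and Hey1 by 3.17 (SE 0.30, adjusted p = 0.000857, or 0.184 with the slide as a block). Rarb, a retinoic acid receptor, was at least 13.2-fold higher (adjusted p = 0.000781). Among the retinoid genes, WT-labelled samples had at least 29.3-fold more Cyp26b1, which degrades retinoic acid (adjusted p = 2.81e-05). Aldh1a1, which makes it, was lower in KO-labelled samples by 2.92 (SE 0.44, adjusted p = 0.00487, or 0.291 with normexp and 0.309 with the slide as a block).

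The ligands Wnt5a and Fgf10 were at least 3.20-fold (adjusted p = 0.00109) and at least 2.57-fold lower (adjusted p = 0.000164), calls that normexp ended (0.244 and 0.415).

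**Figure D4:**
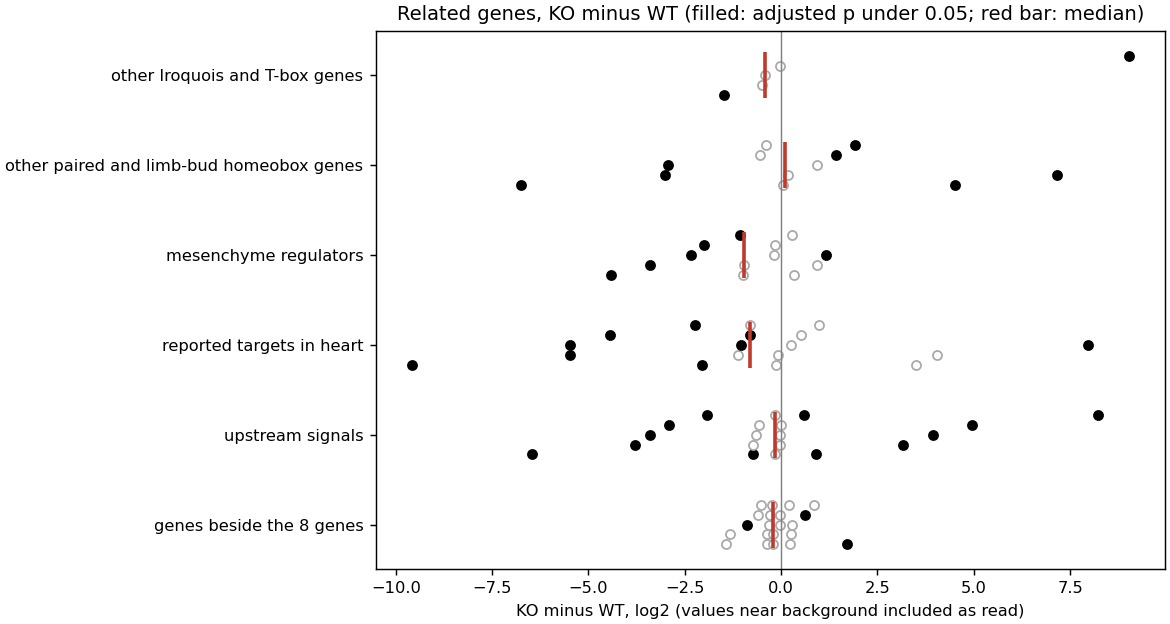
KO minus WT difference in log2 units (horizontal axis) for every tested gene of 6 lists (rows). Filled points passed an adjusted p of 0.05 in the limma fit over 15002 genes, grey open points did not, red bars are list medians, and values of genes not above background in a group are plotted as read. Medians run from -0.97 for the mesenchyme regulators to 0.11 for the paired and limb-bud homeobox genes.

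The 21 tested genes nearest the members on the chromosome, taken as up to 2 on each side in RefSeq order, were read to see whether differences extended past the members. Of these, 2 were higher and 1 lower in KO-labelled samples, with a median of -0.22, beside 13.8% higher and 16.0% lower of all genes. The counts therefore show no excess of called genes beside the members. Crnde, a non-coding transcript between Irx3 and Irx5, read -1.19, -0.96 and -0.94 in KO ventricle, aorta and atrium, -2.67, -2.82 and -2.70 in the same regions of WT, and -0.84 and -1.10 in C2C12. It was higher in KO-labelled samples by 1.70 (SE 0.14, adjusted p = 0.000459, or 1.44 with adjusted p = 0.0415 with the slide as a block), the direction seen for Irx3. Fto, on the other side of Irx3 and known to hold Irx3 enhancers in its introns, differed by -0.38 (SE 0.18, adjusted p = 0.172).

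Beside the chromosome 13 cluster, Ndufs6, a mitochondrial complex I subunit next to Irx4, was higher by 0.62 (SE 0.12, adjusted p = 0.0118). Med10, next to Irx1, differed by -0.37 (SE 0.13, adjusted p = 0.0809). Brip1, beside Tbx2, was lower by 0.88 (SE 0.18, adjusted p = 0.0152). The Ndufs6 and Brip1 calls were lost with the slide as a block (0.213 and 0.202) and on leaving out KO atrium (0.0543 and 0.0545). That of Ndufs6 was also lost without KO aorta (0.0512), and that of Brip1 without WT aorta (0.0553). The 4 neighbours of Prrx1 and the 4 of Tbx3 did not pass the test, with differences of -1.42 to 0.27.

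The same lists were read against C2C12, which both genotype labels share as a control. In KO-labelled samples with C2C12, 0 of 6 other Iroquois and T-box genes, 0 of 13 mesenchyme regulators, 0 of 19 heart targets and 0 of 21 chromosomal neighbours were called by limma, with 1, 2, 4 and 1 at an unadjusted p under 0.05. The homeobox genes had 2 of 13 called, Alx1 among them, and the signals 1 of 21, Cyp26b1, with Alx1 and Cyp26b1 lower than in C2C12. Alx1 was above background on 3 of 3 C2C12 arrays and on no KO or WT array, so it passed the filter through C2C12 alone. Its calls against C2C12 are therefore not independent of the filter. In WT-labelled samples with C2C12, 2 of 6 Iroquois and T-box genes, 9 of 13 homeobox genes, 5 of 13 mesenchyme regulators, 12 of 19 heart targets, 11 of 21 signals and 4 of 21 neighbours were called. Tbx1 was lower than in C2C12 (adjusted p = 6.82e-06) and Mga higher by 0.94 (adjusted p = 0.00305). Crnde was lower than in C2C12 by 1.76 (adjusted p = 0.000274). Over all genes 1.26% and 27.0% were called in these comparisons.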

How the data were processed

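Scanner output of 11 arrays was used. The deposited intensity values are processed signals that the submitters' processing notes credit to Agilent Feature Extraction 9.5.3.1. Background was already subtracted in them and surrogate values stand in for signals near it, per the file headers, which makes differences near background inexact. A deposited table of the whole series in log2 units matched log2 of these signals within 0.01 for 99.7 to 99.8% of probes, with column medians of 5.44 to 5.77. Each array had 45018 spots, of which 1639 controls and 39 to 120 flagged spots were left out and 0 were saturated, and 49.0 to 62.0% of probes were well above background. The number of arrays limits the precision.

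Signals were divided by each array's 75th percentile (960.6 to 1145.5) and taken to log2. Near-identical arrays were joined. Genes stood by the probe with the highest mean. Names were updated through a RefSeq table (24348 probes by accession, 6293 by symbol, 2419 by synonym, 8061 kept as printed). Probe positions are mm8, per the file headers. limma 3.58.1 in R 4.3.3 (lmFit, eBayes, Benjamini-Hochberg adjusted p under 0.05) tested probes above background on at least 3 arrays. KO with WT used 6 samples, and comparisons with C2C12 used all 8. The KO with WT fit was tested on simulated data. It recovered 38.81% of genes changed by 1 log2 unit, 73.13% of those changed by 2 and 95.45% of those changed by 4. Only 67, 67 and 66 of 15002 genes were changed by these sizes, and the others had the same mean in both groups. In the real fit 29.8% of genes were called. The Benjamini-Hochberg adjustment depends on the share of genes that differ, so these rates do not carry over to the real fit. A gene that was not called may still differ. Python 3.11.15, numpy 2.4.6, pandas 2.3.3 and matplotlib 3.10.9 made tables and plots. Members and lists were chosen with earlier results of these data known. Of each list, up to 4 called genes in each direction with the largest difference are named, with known partners or neighbours of a member and, in addition, Pitx1 and Med10, which were added after values were seen. Some listed genes enter the counts but are not reported here by name. Alternatives were other background correction, scaling, filters, joining, slide or region as a block, and each sample left out.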

Additional observations from a re-analysis of the deposited data

Results flagged for a closer look

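Tbx2 in the atrium went opposite ways under the genotype labels. WT atrium was 0.58 above the mean of WT ventricle and aorta on the log2 scale, whereas KO atrium was 0.26 below the mean of KO ventricle and aorta (-0.26). WT atrium exceeded WT ventricle by 0.50 and WT aorta by 0.66. KO atrium was 0.50 below KO ventricle but lay within 0.01 of KO aorta. Each value is 1 sample, so the difference between the genotype labels was not tested.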

How the results depend on the processing

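The labels give no replicate numbers, but KO and WT share 3 regions, and with region as a block 3647 genes were called in KO with WT and no call of a member moved. KO with WT gave 4464 called genes, 2821 with normexp, 897 with the slide as a block (514 of them higher, against 2067 of 4464) and 2734 to 6137 on leaving out samples. KO with C2C12 gave 199, 48 with normexp (33 higher), 100 with no filter, 1629 with every array its own sample and 18 to 455 on leaving out samples, fewest without the first C2C12 sample. WT with C2C12 gave 4260, 2513 with normexp, 6661 with every array its own sample and 2285 to 5810 on leaving out samples. Alternatives for the lists were chosen after seeing the data. Called heart targets went from 9 to 5 with normexp and 4 with the slide as a block, signals from 12 to 7 and 6, homeobox genes from 7 to 4 with the slide as a block, and chromosomal neighbours from 3 to 1 with it, 7 with every array its own sample and 1 to 6 on leaving out samples (6 without WT atrium, 1 without KO atrium). Of 32 called list genes that are named, 21 were called with the slide as a block and 11 were not. Hcn4 turned sign with normexp (0.045) and the slide as a block (0.36). Over 385 alternatives for 24 differences of the 8 genes, no called value changed sign and 17 moved by more than 1 SD, among them Irx1 (-7.18) and Irx3 (1.46) in KO with WT under normexp. In KO with WT, Tbx3 was called only with every array its own sample. The cause of these changes was not tested. Dim probes (Irx3, Irx4) limit what can be ordered.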
